A study of Homo sapiens with 18 samples.

Results

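Transcripts of 10 human genes were followed in 18 tumours: the 4 members of the TSC22 family (TSC22D1, TSC22D2, TSC22D3 and TSC22D4) and 6 genes whose transcription is known to go up when signalling through PI3K and AKT goes down (FOXO3, PIK3IP1, IRS2, CCNG2, TXNIP and ARRDC3). They are 10 of the 25343 genes in the tables and were found by Entrez gene ID. The genes were chosen by their known roles and by the level of TSC22D3 in dosed against vehicle tumours of these same data, so for all 10 genes those comparisons are given as a description, and no call in them is a test of these genes. The tumours were xenografts of the human colon cancer line HCT116, and all of them, the vehicle ones included, carried a knockout of PTDSS2. Mice were given vehicle, or the compound DS55980254 at 10 or 30 mg/kg in 0.5% methylcellulose, by mouth, and tumours were collected 24 hours after dosing, with 6 libraries per group. The series concerns inhibition of PTDSS1, the other phosphatidylserine synthase, in cancer cells that lack PTDSS2. The labels do not say whether the knockout line was 1 clone or how many mice gave the tumours. The p-values below set group differences against the spread between libraries, taken as independent, and speak only for these samples. They could be too small if tumours shared a mouse.

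FOXO transcription factors are phosphorylated by AKT and then held in the cytoplasm. When growth factor input through PI3K and AKT is low, they enter the nucleus and switch on genes of cell cycle exit, stress resistance and feedback onto the insulin pathway. TSC22 family proteins share a leucine zipper through which they pair with each other. TSC22D3, also called GILZ, is best known as a transcript induced by glucocorticoids, and it is also a target of FOXO3. TXNIP and ARRDC3 are alpha-arrestins, adaptors that direct membrane proteins to ubiquitin ligases.

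Counts assigned to human genes came to 3435435 to 8538793 per library in 17 libraries and to 433989 in 10 mg/kg replicate 2, so that library gives the least precise values. Its mean correlation with the other libraries was 0.728, against 0.943 to 0.955 for the rest. Epithelial markers such as EPCAM (450.2 TPM on average) were abundant, while VIL1 (0.392 TPM) and KRT20 (1.95 TPM) were low. PTDSS2 itself kept some counts (8.75 ± 2.30 CPM in vehicle tumours, 9.43 ± 2.32 CPM in 10 mg/kg tumours and 7.92 ± 3.36 CPM in 30 mg/kg tumours, SD, n = 6 each), and a gene count does not tell an edited transcript from an intact one. Levels below are normalised counts scaled to library size (CPM), or TPM, which is also scaled for transcript length, where genes are compared with each other.

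TSC22D3 (Entrez gene 1831) was the 1 gene of the 10 whose level lay above every vehicle library in all 30 mg/kg libraries, and in 5 of the 6 libraries at 10 mg/kg. Its normalised count lay between 18.3 and 26.8 CPM with vehicle (median 22.6), between 25.7 and 58.2 CPM at 10 mg/kg (median 52.6) and between 37.5 and 55.7 CPM at 30 mg/kg (median 47.6). Every 30 mg/kg library lay above every vehicle library, which held for 1.25% of the 14074 genes tested. At 10 mg/kg, 5 libraries lay at 45.6 CPM or above, and only replicate 2, at 25.7 CPM from 12 counts, fell inside the vehicle range. The means were 22.2 ± 3.26 CPM in vehicle tumours, 48.7 ± 12.2 CPM in 10 mg/kg tumours and 47.1 ± 7.16 CPM in 30 mg/kg tumours (SD, n = 6 each), and without replicate 2 the 10 mg/kg mean was 53.3 ± 5.15 CPM. The model's fold change against vehicle was 2.30 at 10 mg/kg (log2 1.20, SE 0.14, 95% interval 0.90 to 1.5) and 2.12 at 30 mg/kg (log2 1.09, SE 0.14, 95% interval 0.79 to 1.38). Counted down from the largest rise, TSC22D3 was 114th at 10 mg/kg and 40th at 30 mg/kg among all genes tested. Without replicate 2 the log2 fold change at 10 mg/kg was 1.27.

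**Figure D1:**
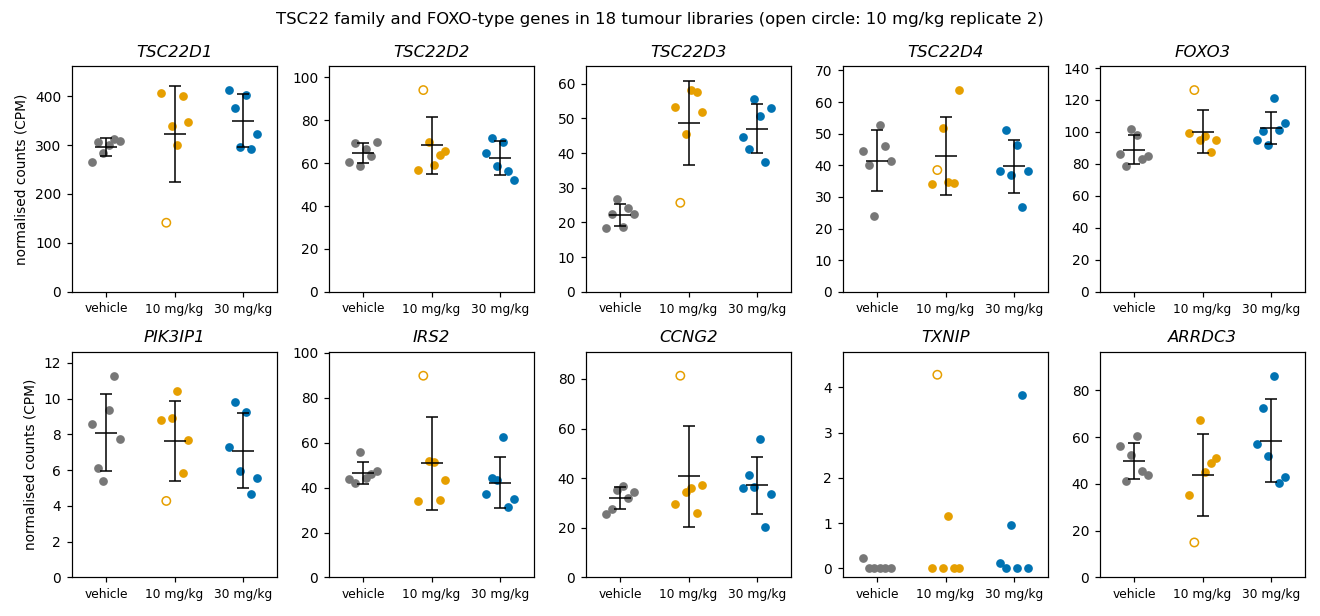
Normalised counts (CPM, linear axis) of the 10 genes in each library, by group in the order vehicle, 10 mg/kg and 30 mg/kg; points are libraries, the open circle is 10 mg/kg replicate 2, and bars are the mean and SD over 6 libraries (not drawn for TXNIP, listed at 0 in 12 libraries). TSC22D3 lies at 37.5 to 55.7 CPM at 30 mg/kg against 18.3 to 26.8 CPM with vehicle, and the groups overlap in the other 9 panels.

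TSC22D3 is abundant in leukocytes, and the tumours are bulk samples in which more cells of a type and more RNA per cell cannot be told apart. The summed level of 9 human leukocyte markers was 11.8 to 22.9 TPM with vehicle, 14.7 to 44.2 TPM at 10 mg/kg (44.2 in replicate 2, at most 22.1 in the others) and 13.0 to 19.9 TPM at 30 mg/kg. Of these 9 markers, 5 were at 0 in some libraries, among them PTPRC, CD3E and TYROBP (in 9, 13 and 15 of the 18). CD68 (7.60 TPM on average), LYZ (6.47 TPM), CSF1R (1.73 TPM) and ITGAM (0.634 TPM) were above 0 in all 18 libraries. Of the other marker lists, the 6 skin markers summed to 98.4 to 220 TPM with vehicle (median 171), 176 to 316 TPM at 10 mg/kg (median 220) and 164 to 277 TPM at 30 mg/kg (median 226). That sum was mostly the basal keratin KRT5 (170 TPM on average), with KRT10 at 23.2 TPM and KRT14 at 11.3 TPM. The cornified layer genes KRT1, LORICRIN and FLG each averaged under 1 TPM. The hosts were mice, so host skin cells or leukocytes in these xenografts would be mouse cells. How mouse reads were set apart from human ones is not given. The part of such reads in the marker and TSC22D3 values was not tested. The summed levels of the 8 fibroblast, 7 endothelial, 5 muscle, 5 adipose and 5 erythroid markers were highest in 10 mg/kg replicate 2 (79.3, 37.3, 36.6, 17.3 and 14.3 TPM).

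The promoter sequences of the genes show how far they share the FOXO core motif GTAAACA, the letters to which FOXO proteins bind. RefSeq promoter windows (GRCh38.p14, 250 bases before to 50 after an annotated start) were found for 9 of the 10 genes, 22 windows in all, and none was found for TSC22D2. The motif, searched on both strands, lies in 1 window each of TSC22D3, PIK3IP1, ARRDC3 and TXNIP, so in 4 of 22 windows and 4 of 9 genes. Over all promoters in the table, 3.42% of 35116 windows and 4.19% of 27305 genes held it. The genes were chosen in part for known links to PI3K, AKT and FOXO factors, and they have more windows per gene than all genes. The difference in shares is therefore no test. The 4 windows are printed because they set TSC22D3 beside the 3 genes that share its motif, all on the minus strand of the genome and read 5′ to 3′ along the gene, at chrX:107717013-107717312 (TSC22D3), chr22:31292439-31292738 (PIK3IP1), chr5:91380048-91380347 (ARRDC3) and chr1:145996530-145996829 (TXNIP). Capitals mark the FOXO core (GTAAACA, or TGTTTAC where it lies on the opposite strand) and, in TXNIP, also the carbohydrate response element.
TSC22D3: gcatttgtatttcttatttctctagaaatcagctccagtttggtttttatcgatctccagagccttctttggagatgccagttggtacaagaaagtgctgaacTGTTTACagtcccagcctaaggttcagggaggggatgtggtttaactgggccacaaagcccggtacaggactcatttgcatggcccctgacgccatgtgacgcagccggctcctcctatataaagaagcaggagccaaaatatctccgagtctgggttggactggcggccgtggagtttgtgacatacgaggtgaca
PIK3IP1: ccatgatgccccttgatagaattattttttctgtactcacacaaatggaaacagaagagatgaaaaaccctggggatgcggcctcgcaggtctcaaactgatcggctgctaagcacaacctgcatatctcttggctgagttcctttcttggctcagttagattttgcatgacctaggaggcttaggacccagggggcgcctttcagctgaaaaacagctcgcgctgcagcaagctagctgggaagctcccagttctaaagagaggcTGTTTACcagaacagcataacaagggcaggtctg
ARRDC3: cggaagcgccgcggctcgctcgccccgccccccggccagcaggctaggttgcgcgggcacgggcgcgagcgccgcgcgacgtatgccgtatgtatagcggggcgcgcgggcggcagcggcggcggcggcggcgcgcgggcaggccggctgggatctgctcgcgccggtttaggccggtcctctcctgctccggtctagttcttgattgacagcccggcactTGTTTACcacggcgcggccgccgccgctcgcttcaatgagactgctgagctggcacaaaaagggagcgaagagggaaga
TXNIP: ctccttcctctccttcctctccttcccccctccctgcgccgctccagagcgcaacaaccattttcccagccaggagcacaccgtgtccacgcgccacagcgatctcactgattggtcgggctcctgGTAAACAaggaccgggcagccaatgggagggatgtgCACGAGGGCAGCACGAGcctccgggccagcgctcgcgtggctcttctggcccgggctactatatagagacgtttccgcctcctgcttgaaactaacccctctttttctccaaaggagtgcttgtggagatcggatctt
In TSC22D3 the motif lies 147 to 141 bases before the start, in ARRDC3 29 to 23 before it, in TXNIP 124 to 118 before it, and in PIK3IP1 16 to 22 bases after it. TSC22D3 has 3 further windows without the motif. The full glucocorticoid response element was searched as AGAACA and TGTTCT with 3 bases between them. Exact copies were in 0 of the 22 windows and in 0.00285% of all windows. At that rarity 0 of 22 says little, inexact copies were not searched, and these windows do not cover distant elements. The element to which the glucose-sensing factors MLXIP and MLXIPL bind, searched as a pair of CACGNG with 5 bases between them, was in the TXNIP window alone among the 22 (88 to 72 bases before the start), against 0.057% of all windows. The E-box CACGTG was in 1 window each of TSC22D1 and CCNG2, against 7.26% of all windows. Of the 4 genes with the FOXO core, TSC22D3 lay above the vehicle range at 30 mg/kg and, apart from replicate 2, at 10 mg/kg, while PIK3IP1 and ARRDC3 overlapped with vehicle at both doses and TXNIP had too few counts to compare. These matches are letters in a window and no sign that a factor binds there.

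The other 3 TSC22 genes overlapped with vehicle at both doses. TSC22D1 (Entrez gene 8848), named as a transcript stimulated by TGF-beta, lay between 265 and 313 CPM with vehicle (median 303), between 141 and 406.5 CPM at 10 mg/kg (median 343) and between 291.5 and 412 CPM at 30 mg/kg (median 349). Its 141 CPM was 10 mg/kg replicate 2, and in both dosed groups most of the other libraries lay above the vehicle median. The means were 296 ± 18.3 CPM in vehicle tumours, 323 ± 97.4 in 10 mg/kg tumours and 350.1 ± 53.4 in 30 mg/kg tumours (SD, n = 6 each), with log2 fold changes of 0.15 at 10 mg/kg (95% interval -0.19 to 0.48; 0.28 without replicate 2) and 0.24 at 30 mg/kg (-0.09 to 0.57). TSC22D1 has an antisense neighbour, and whether the counting used strand is not stated, so reads of that neighbour cannot be told apart from its own.

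TSC22D2 (Entrez gene 9819) and TSC22D4 (Entrez gene 81628) encode partners of the NRBP1 and WNK kinases, and TSC22D4 is also known to bind AKT. TSC22D2 had 58.6 to 69.8 CPM with vehicle (median 65.1), 56.9 to 94.1 CPM at 10 mg/kg (median 64.8) and 52.4 to 71.9 CPM at 30 mg/kg (median 61.7). TSC22D4 had 24.0 to 52.8 CPM with vehicle (median 42.9), 34.1 to 63.8 CPM at 10 mg/kg (median 36.6) and 26.9 to 51.2 CPM at 30 mg/kg (median 38.3). The groups overlapped for both genes. The TSC22D4 range at 10 mg/kg lay higher at both ends than with vehicle while its median lay lower, and the highest TSC22D2 value was 10 mg/kg replicate 2 (94.1 CPM from 44 counts). Their log2 fold changes lay between -0.06 and 0.07 at both doses, within 95% intervals no wider than -0.44 to 0.46.

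Per transcript length, TSC22D1 was the main TSC22 gene in these tumours. Over 18 libraries it averaged 169.8 TPM (42.8 to 238), above TSC22D3 in all 18, and its mean stood at the 95.1 percentile of the genes tested. TSC22D3 averaged 40.2 TPM (17.2 to 62.3), TSC22D4 34.6 TPM and TSC22D2 32.6 TPM, and the ranges of these 3 overlapped. TSC22D3 made up 9.36 ± 1.40% of the summed TPM of the 4 genes in vehicle tumours, 17.1 ± 2.06% in 10 mg/kg tumours and 16.4 ± 3.17% in 30 mg/kg tumours (SD, n = 6 each). The lowest dosed share was 13.1%, above the highest vehicle share of 11.9%. This gap rests on levels that were in view when the genes were picked, so it is no test. 10 mg/kg replicate 2 had 15.3%, although its TSC22D3 level was 17.2 TPM from 12 counts, below every vehicle library (19.7 TPM or above). Its summed TPM was low, with TSC22D1 at 42.8 TPM against 140 TPM or above in vehicle tumours. The summed TPM itself was 247 ± 18.1 in vehicle tumours, 285 ± 88.2 in 10 mg/kg tumours and 300 ± 50.5 in 30 mg/kg tumours (SD, n = 6 each), and the groups overlapped.

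**Figure D2:**
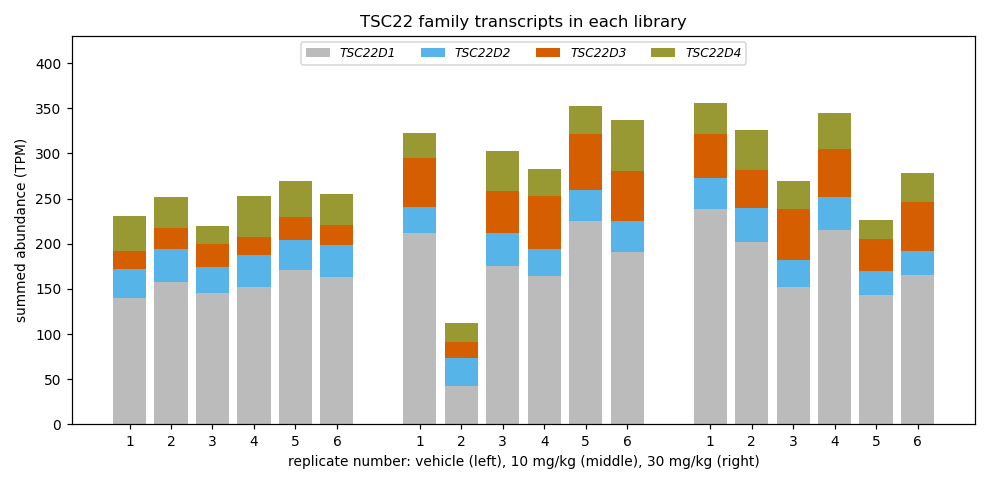
Abundance (TPM) of the 4 TSC22 genes stacked for each of the 18 libraries, by replicate number within vehicle, 10 mg/kg and 30 mg/kg. The TSC22D3 segment holds 13.1% to 21.1% of each dosed bar against 7.85% to 11.9% of each vehicle bar, and 10 mg/kg replicate 2 has the lowest sum, 112 TPM.

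FOXO3, PIK3IP1 and IRS2 sit on the PI3K pathway itself, and none of them stood apart from vehicle. FOXO3 (Entrez gene 2309), one of the FOXO factors that AKT phosphorylates, had 78.9 to 102 CPM with vehicle (median 85.6), 87.3 to 126 CPM at 10 mg/kg (median 96.2) and 92.1 to 121 CPM at 30 mg/kg (median 100.8). At both doses all 6 libraries lay above the vehicle median, while the ranges overlapped with vehicle. Its log2 fold change was 0.14 at 10 mg/kg (fold 1.10, 95% interval -0.07 to 0.35) and 0.21 at 30 mg/kg (fold 1.15, 0.00 to 0.41). The 126 CPM was 10 mg/kg replicate 2, without which the 10 mg/kg value was 0.10 on the log2 scale. FOXO3 shares sequence with the near-identical copy FOXO3B, and some of its expected counts were not whole numbers, so its level carries that uncertainty.

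PIK3IP1 (Entrez gene 113791) encodes a membrane protein that holds back the catalytic subunit of PI3K, and it was the lowest of the genes that passed the filter on low counts. It had 5.41 to 11.3 CPM with vehicle (median 8.17), 4.28 to 10.4 CPM at 10 mg/kg (median 8.24) and 4.66 to 9.83 CPM at 30 mg/kg (median 6.64), from 2 counts in 10 mg/kg replicate 2 and 17 to 61 counts in the other libraries. The groups covered the same range, with log2 fold changes of -0.01 at 10 mg/kg (95% interval -0.50 to 0.49) and -0.19 at 30 mg/kg (-0.67 to 0.29). IRS2 (Entrez gene 8660), the adaptor that links the insulin receptor to PI3K and whose gene FOXO factors raise, had 42.2 to 55.7 CPM with vehicle (median 45.2), 34.1 to 89.8 CPM at 10 mg/kg (median 47.3) and 31.2 to 62.7 CPM at 30 mg/kg (median 40.3). The 30 mg/kg range enclosed the vehicle range, and the 10 mg/kg range did so only through replicate 2 (34.1 to 51.8 CPM without it), with log2 fold changes of 0.00 at 10 mg/kg (95% interval -0.39 to 0.39) and -0.14 at 30 mg/kg (-0.50 to 0.22). In that library IRS2 rested on 42 counts.

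CCNG2 (Entrez gene 901), an atypical cyclin linked to cell cycle arrest, had 25.8 to 36.8 CPM with vehicle (median 33.2), 26.1 to 81.3 CPM at 10 mg/kg (median 35.2) and 20.3 to 55.7 CPM at 30 mg/kg (median 36.1). The medians differed by little, and the 81.3 CPM was 10 mg/kg replicate 2. Its log2 fold change was 0.18 at 10 mg/kg (95% interval -0.26 to 0.61; 0.03 without replicate 2) and 0.22 at 30 mg/kg (-0.20 to 0.64). ARRDC3 (Entrez gene 57561), the alpha-arrestin that binds beta-adrenergic receptors, had 41.4 to 60.6 CPM with vehicle (median 48.9), 15.0 to 67.2 CPM at 10 mg/kg (median 47.2) and 40.5 to 86.3 CPM at 30 mg/kg (median 54.5). At 30 mg/kg, 2 libraries (72.6 and 86.3 CPM) lay above every vehicle library and the other 4 did not. Its log2 fold change was -0.09 at 10 mg/kg (95% interval -0.50 to 0.33; -0.01 without replicate 2) and 0.23 at 30 mg/kg (-0.18 to 0.63).

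TXNIP (Entrez gene 10628), which binds thioredoxin and limits glucose uptake, was nearly silent in these tumours and did not pass the filter on low counts. Its 18 libraries held 26 counts in all, 1 in vehicle tumours, 6 in 10 mg/kg tumours and 19 in 30 mg/kg tumours. It had 0 counts in 5 vehicle libraries, 4 of the 10 mg/kg libraries and 3 of the 30 mg/kg libraries, which allows a level of up to 0.610 to 0.776 CPM in those libraries (3 counts, counting error only). Of the 19 counts at 30 mg/kg, 14 were in replicate 5. No fold change is given for TXNIP.

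**Figure D3:**
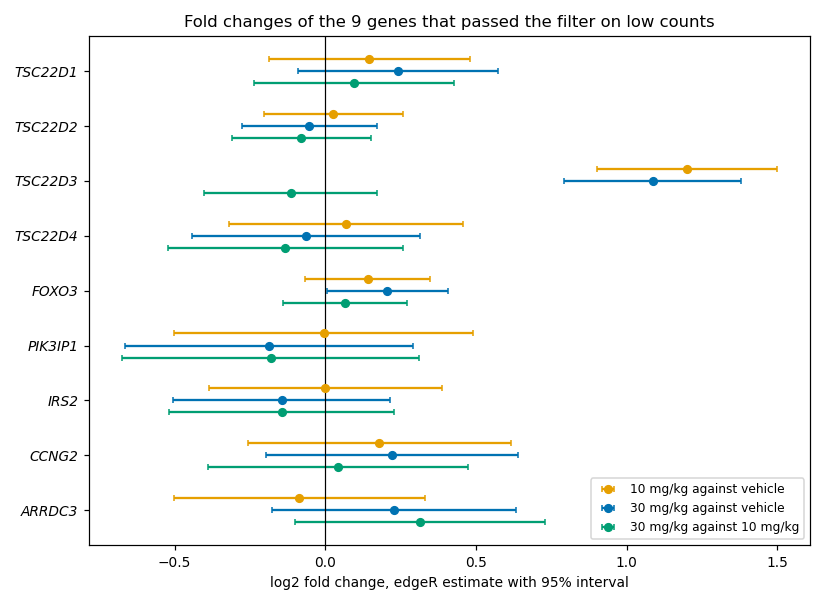
Log2 fold change with 95% interval (edgeR estimate, 18 libraries) of the 9 genes that passed the filter, for 10 mg/kg against vehicle, 30 mg/kg against vehicle and 30 mg/kg against 10 mg/kg. The intervals of TSC22D3 against vehicle are 0.90 to 1.5 and 0.79 to 1.38, the lower bound of FOXO3 at 30 mg/kg is just above 0, and all other intervals span 0.

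Over all 14074 genes tested, 0.469% (66 genes) had an adjusted p under 0.05 by edgeR at 10 mg/kg and 0.618% (87 genes) at 30 mg/kg. Of the 9 genes that passed the filter, 1, TSC22D3, is among them at each dose. These contrasts were in view when the genes were picked, so that count is no test of them and nothing is read from it. The median log2 fold change of the 9 genes was 0.07 at 10 mg/kg and 0.21 at 30 mg/kg, beside medians of all genes of -0.006 and -0.001. Both doses are set against the same 6 vehicle libraries.

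The step between the doses was not used to pick the genes and was tested. None of the 9 genes differed between 30 and 10 mg/kg in edgeR's quasi-likelihood test (adjusted p = 0.969 to 0.994), beside 0% of all genes (0 of 14074 called by edgeR, DESeq2, limma-voom or limma-trend, and 496, or 3.52%, with an unadjusted p under 0.05, of which 0 were among the 9). TSC22D3 averaged 47.1 ± 7.16 CPM in 30 mg/kg tumours and 48.7 ± 12.2 CPM in 10 mg/kg tumours (SD, n = 6 each), a log2 fold change of -0.11 with a 95% interval of -0.40 to 0.17, or 0.7575-fold to 1.13-fold. The widest gap was that of ARRDC3, with a log2 fold change of 0.31 (95% interval -0.10 to 0.73, adjusted p = 0.969 by edgeR's quasi-likelihood test). For TSC22D1, TSC22D2, TSC22D4, FOXO3, PIK3IP1, IRS2 and CCNG2 the values lay between -0.18 and 0.09, with bounds from -0.67 to 0.47.

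With group means subtracted, TSC22D3 had weak or negative rank correlations with the other genes, while many of those varied together. Over the 17 libraries other than 10 mg/kg replicate 2, Spearman's rank correlation of log2 CPM after subtracting group means was -0.46 to 0.13 for the 8 pairs with TSC22D3 (median -0.06). For the 28 pairs among the other 8 genes it was -0.22 to 0.70 (median 0.37), with 24 pairs above 0 and 7 at 0.5 or more. The closest pairs were IRS2 with CCNG2 (0.70), TSC22D2 with TSC22D4 (0.65) and TSC22D4 with ARRDC3 (0.59). The 10 mg/kg means subtracted still held replicate 2, so the other libraries of that group were not centred on 0. They lay above it for genes low in replicate 2, such as TSC22D3. They lay below it for genes high in replicate 2, such as IRS2 and CCNG2. The correlations are thus not free of that library, and how far it shaped them was not tested. These are descriptions over libraries that share a cell line, and each library's values share its depth and scaling. In the same way 30 mg/kg replicate 5 was the lowest of its group for 7 of the 9 genes, and 30 mg/kg replicate 4 the highest for 4.

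The average transcript length of a gene, which the tables weight by the abundance of its transcripts, changes when the mix of long and short transcripts changes, and it was not used to pick the genes. TSC22D3, with 3 transcripts in the annotation, had a length of 1967.1 ± 18.6 bases in vehicle tumours, 1968.8 ± 9.37 in 10 mg/kg tumours and 1963.8 ± 14.01 in 30 mg/kg tumours (SD, n = 6 each). The ratio of dosed to vehicle length was 1.00 at 10 mg/kg and 0.998 at 30 mg/kg (log2 95% intervals -0.01 to 0.01 and -0.02 to 0.01), with adjusted p = 0.994 and 1 by limma. Its average length thus lay within a narrow interval around that of vehicle tumours while its level was about 2-fold apart. The lengths of its 3 transcripts were not compared. A changed mix of transcripts of like length would leave the average unmoved, so a constant mix cannot be read from it. TSC22D1, with 5 transcripts, had 3840.8 ± 119 bases in vehicle tumours, 3836.5 ± 215 in 10 mg/kg tumours and 3748 ± 67.8 in 30 mg/kg tumours (SD, n = 6 each), with adjusted p = 1 at both doses by limma. FOXO3 and PIK3IP1, with 2 transcripts each, also did not pass (adjusted p = 0.853 to 1 by limma), and the other members have 1 transcript. Of the 6704 genes whose length varied, 0% were called in any of the 3 comparisons (0 by limma, with 4.42%, 2.39% and 4.4% at an unadjusted p under 0.05 for 10 mg/kg against vehicle, 30 mg/kg against vehicle and 30 against 10 mg/kg, or 296, 160 and 295 genes).

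Other genes of the same pathways were taken as lists of textbook members, 171 genes in 8 lists, of which 162 were tested. The lists were chosen with earlier results of these data known, so counts over them are a description and no test of the lists. Each adjusted p was taken over all 14074 genes. At 10 mg/kg 3 of them rose and 0 fell, and at 30 mg/kg 3 rose and 0 fell (edgeR, adjusted p under 0.05), beside 0.419% of all genes higher and 0.0497% lower at 10 mg/kg and 0.568% higher and 0.0497% lower at 30 mg/kg. At an unadjusted p under 0.05 there were 17 of the 162 at 10 mg/kg and 26 of the 162 at 30 mg/kg. Of all 14074 genes there were 1337 (9.5%) and 1112 (7.9%). The share was thus larger in the lists than among all genes, mainly at 30 mg/kg, and that difference was not tested. Between 30 and 10 mg/kg 0 of the 162 were called, with 6 at an unadjusted p under 0.05. Most of each list thus did not pass, and the 4 genes that did were KLF6, PCK2, KLF9 and NFKBIA. With no filter on low counts KLF6, KLF9 and NFKBIA lost their calls at 10 mg/kg (adjusted p = 0.171, 0.166 and 0.0674 by edgeR) and KLF9 also at 30 mg/kg (0.0873), and with limma-trend on log2(TPM + 1) all 6 calls of these genes were lost (adjusted p = 0.0933 to 0.434).

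Of 30 other FOXO targets tested, 1 rose at 10 mg/kg and 2 at 30 mg/kg, with median log2 fold changes of 0.05 and 0.13 and 19 and 20 genes above 0. Of all genes tested, 48.8% lay above 0 at 10 mg/kg and 49.8% at 30 mg/kg. KLF6, a zinc finger transcription factor induced by many stimuli, had 132 to 187 CPM with vehicle (median 145), 201 to 239.5 CPM at 10 mg/kg (median 216) and 202 to 270 CPM at 30 mg/kg (median 229). Every dosed library lay above every vehicle library, as for 0.689% of all genes at 10 mg/kg and 1.25% at 30 mg/kg. KLF6 rose 1.43-fold at 10 mg/kg (log2 0.51, adjusted p = 0.0162) and 1.51-fold at 30 mg/kg (log2 0.59, adjusted p = 0.00243) by edgeR's quasi-likelihood test. The 10 mg/kg call was lost without vehicle replicate 1, 4 or 5 (adjusted p up to 0.0622), and the 30 mg/kg call held without any 1 library. PCK2, the mitochondrial phosphoenolpyruvate carboxykinase and also a target of the stress factor ATF4, had 17.5 to 28.0 CPM with vehicle (median 21.1), 25 to 35.4 CPM at 10 mg/kg (median 30.9) and 27.9 to 46.2 CPM at 30 mg/kg (median 32.3). Its ranges touched those of vehicle at both doses. PCK2 rose 1.62-fold at 30 mg/kg (log2 0.69, adjusted p = 0.0222 by edgeR), a call lost without any of 6 libraries (up to 0.101), and was at 1.43-fold at 10 mg/kg without passing (adjusted p = 0.222 by edgeR). The kinase inhibitors and sestrins on the list did not pass. Among the inhibitors of cyclin-dependent kinases, CDKN1A had log2 fold changes of 0.34 and 0.29 at 10 and 30 mg/kg, CDKN1B 0.26 and 0.11, and CDKN2B 0.37 and 0.33. Among the sestrins, which restrain mTOR, SESN1 had -0.31 and -0.39, SESN2 0.54 and 0.35, and SESN3 -0.04 and 0.12. GADD45B, a stress-induced growth arrest gene singled out for the largest fold of its list at 10 mg/kg, was at 2.23-fold at 10 mg/kg and 1.49-fold at 30 mg/kg without passing (adjusted p = 0.278 and 0.818 by edgeR).

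Of 18 genes tested from the glucocorticoid list, 2 rose at 10 mg/kg and 1 at 30 mg/kg, with medians of 0.15 and 0.12 and 12 genes above 0 at each dose (48.8% and 49.8% of all genes). KLF9, a zinc finger factor that glucocorticoids induce, had 5.64 to 8.58 CPM with vehicle (median 6.89), 9.98 to 13.9 CPM at 10 mg/kg (median 12.2) and 9.33 to 14.2 CPM at 30 mg/kg (median 12.5), with no overlap at either dose. Every dosed library lay above vehicle for 0.689% of all genes at 10 mg/kg and 1.25% at 30 mg/kg. KLF9 rose 1.72-fold at 10 mg/kg (log2 0.78, adjusted p = 0.0381) and 1.71-fold at 30 mg/kg (log2 0.77, adjusted p = 0.0268) by edgeR. The calls were lost without any of 11 libraries at 10 mg/kg (up to 0.108) and any of 7 at 30 mg/kg (up to 0.0885). NFKBIA, the inhibitor of NF-kB that glucocorticoids and NF-kB both induce, had 30.7 to 44.7 CPM with vehicle (median 35.6), 47.4 to 85.6 CPM at 10 mg/kg (median 58.2) and 38.1 to 63.8 CPM at 30 mg/kg (median 50.9), and the groups overlapped at 30 mg/kg alone. It rose 1.60-fold at 10 mg/kg (log2 0.67, adjusted p = 0.0304, lost without any of 7 libraries, up to 0.118, by edgeR) and was at 1.41-fold at 30 mg/kg without passing (adjusted p = 0.163 by edgeR). Other glucocorticoid targets lay on either side of 0 without passing: FKBP5 had log2 fold changes of -0.22 and -0.13 at 10 and 30 mg/kg, PER1 -0.05 and -0.16, DUSP1 0.44 and 0.37, MT1X 0.59 and 0.49, and CEBPB 0.28 and 0.28. NR3C1, the receptor itself, was at 25.02 ± 3.70 CPM in vehicle tumours, 27.6 ± 7.85 in 10 mg/kg tumours and 26.4 ± 7.21 in 30 mg/kg tumours (SD, n = 6 each). SGK1, on both the glucocorticoid and the PI3K list and singled out after its values were seen, was at 2.09-fold at 10 mg/kg and 1.61-fold at 30 mg/kg without passing (adjusted p = 0.132 and 0.485 by edgeR).

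**Figure D4:**
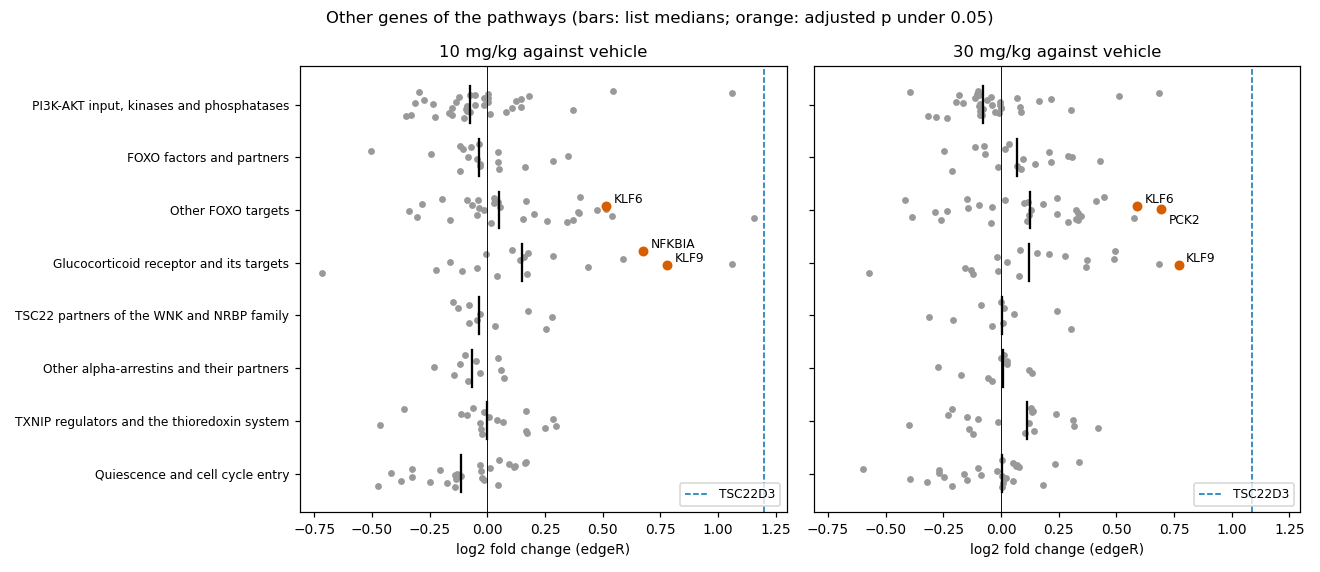
Log2 fold change (edgeR) of each tested gene of the 8 pathway lists at 10 mg/kg (left) and 30 mg/kg (right) against vehicle; bars are list medians, orange points passed an adjusted p under 0.05, and the dashed line is TSC22D3. All list medians lie between -0.11 and 0.15, and the called genes KLF6, PCK2, KLF9 and NFKBIA lie left of TSC22D3.

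In the other 6 lists 0 genes passed at either dose by edgeR. The 35 genes of PI3K and AKT input, kinases and phosphatases had medians of -0.08 at both doses. Among them IRS1, the sister adaptor of IRS2, was at 785 ± 37.4 CPM in vehicle tumours, 610 ± 153 CPM in 10 mg/kg tumours and 630 ± 86.2 CPM in 30 mg/kg tumours (SD, n = 6 each), with adjusted p = 0.428 at 10 mg/kg and 0.582 at 30 mg/kg by edgeR. The 17 FOXO factors and partners had medians of -0.04 at 10 mg/kg and 0.07 at 30 mg/kg, with FOXO1 at 12.9 ± 2.30 CPM in vehicle tumours, 12.4 ± 4.27 in 10 mg/kg tumours and 11.2 ± 4.69 in 30 mg/kg tumours (SD, n = 6 each). FOXO4 was at 10.7 ± 2.41, 11.3 ± 2.59 and 11.4 ± 1.94 CPM in the same order of groups. The 10 WNK and NRBP partners of TSC22 proteins had medians of -0.04 and 0.01 at 10 and 30 mg/kg, and the 10 other alpha-arrestins and their partners -0.07 and 0.01. The 18 regulators of TXNIP and thioredoxin genes had medians of -0.00 and 0.11 at 10 and 30 mg/kg. MYC among them was at -0.47 and -0.40 on the log2 scale at 10 and 30 mg/kg without passing by edgeR (adjusted p = 0.0856 and 0.165). It passed at both doses by DESeq2 (adjusted p = 0.0106 and 0.0375), by limma-voom (0.0268 and 0.019) and by edgeR without 10 mg/kg replicate 2 (0.0431 and 0.0489). The 25 genes of quiescence and cell cycle entry had medians of -0.11 and 0.00 at 10 and 30 mg/kg.

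Among the 5 genes whose levels followed TSC22D3 most closely over the 18 libraries, of 12546 genes with a mean of at least 5 CPM, were HMOX1 (haem oxygenase, Spearman's rank correlation 0.84), LBH (0.83) and LPAR5 (a lysophosphatidic acid receptor, 0.82). HMOX1 had 8.13 to 14.6 CPM with vehicle, 12.8 to 19.2 CPM at 10 mg/kg and 11.25 to 19.5 CPM at 30 mg/kg, so its groups overlapped. LBH was at 12.1 ± 2.32 CPM in vehicle tumours, 28.5 ± 8.24 in 10 mg/kg tumours and 26.6 ± 6.44 in 30 mg/kg tumours (SD, n = 6 each), and all its dosed libraries (19.25 CPM or above) lay above the highest vehicle library (15.8 CPM). Such a gap held for 0.689% of all genes at 10 mg/kg and 1.25% at 30 mg/kg. LBH was picked by its correlation with TSC22D3 over these libraries, so its gap is no separate test. These correlations hold the group differences, which all 18 libraries share. After subtracting group means they were 0.67 for HMOX1, 0.48 for LBH and 0.32 for LPAR5, so HMOX1 stayed closest of these within groups. Without 10 mg/kg replicate 2 the 3 genes had correlations between 0.80 and 0.82, and the closest gene of all was NEU1 (0.89), the lysosomal sialidase, at 0.18 over all 18 libraries after subtracting group means.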

How the data were processed

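RNA-seq gene tables of 18 tumours were used. Per the labels' protocols, 5 ng of Promega Maxwell RNA per tumour went into Clontech SMARTer Stranded pico v2 libraries. The submitters' processing notes name STAR 2.4.2a, hg19 and mm10; not given in the sources used here are the quantifier, the annotation, the use of strand and how mouse reads were set apart. Per the file headers, the deposited tables hold expected counts (estimated reads per gene, not scaled), TPM (scaled for transcript length by the authors) and an abundance-weighted transcript length in bases, for 25343 Entrez gene IDs. Of these, 25220 got a symbol through their ID and 26 through a transcript accession.

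Expected counts were rounded. filterByExpr (count minimum 10) left 14074 genes, which were scaled by TMM and fitted over all 18 libraries in edgeR 4.0.16 (R 4.3.3; glmQLFit with robust set, quasi-likelihood F-test), with Benjamini-Hochberg adjustment over all genes and a threshold of 0.05. Log2 transcript length was tested with limma 3.58.1 over 6704 genes. Total counts were 433989 to 8538793 per library. Both fits were tested on simulated data. The genes and the lists were chosen with earlier results of these data known. Named beside the 10 genes are up to 4 called genes per list with a mean of at least 5 CPM, and the 5 genes most correlated with TSC22D3, of which 2 are not reported here; list genes named without being called were chosen with their values in view. Alternatives were RLE size factors, no filter, at least 5 CPM in 6 libraries, DESeq2 1.42.0, limma-voom with sample weights, limma-trend on log2(TPM + 1), the groups compared alone, the replicate block, and each library left out. Promoter windows are those of RefSeq on GRCh38.p14; no gene coordinates of hg19 are given.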

Additional observations from a re-analysis of the deposited data

Results flagged for a closer look

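The 10 genes gave 30 groups of 6 levels, which were checked for a library far from the rest of its group, as were average transcript lengths. Over both measures 9 such values were found. Chance alone flags about 1 in 20 groups where values are not tied. Of these 9, 6 were in 10 mg/kg replicate 2, the library with 433989 counts. In it TSC22D2 was at 94.1 CPM (56.9 to 70.1 in the other 5 libraries), FOXO3 at 126 CPM (87.3 to 99.6), IRS2 at 89.8 CPM (34.1 to 51.8) and CCNG2 at 81.3 CPM (26.1 to 37.1). TXNIP was at 4.28 CPM there, from 2 counts (0 to 1.16 in the rest). The average transcript length of PIK3IP1, which also rested on 2 counts, was 2394 bases in it (2446 to 2473 in the rest).

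In 30 mg/kg replicate 5 TXNIP was at 3.84 CPM, from 14 counts, while the other 5 libraries had 0 to 0.957 CPM. In vehicle replicate 1 TXNIP was at 0.226 CPM, from 1 count, against 0 in the other 5 libraries. The average transcript length of PIK3IP1 was 2394 bases in 30 mg/kg replicate 3, against 2473 bases in the other 5 libraries. For TXNIP with vehicle and for this length the other 5 values were equal, so any differing value would have been flagged.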

How the results depend on the processing

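Over all 27 settings the log2 fold change of TSC22D3 against vehicle was 0.97 to 1.28 at 10 mg/kg and 1.03 to 1.15 at 30 mg/kg. The count of members called at each dose, which is no test of them, was 1 apart from limma-trend on log2(TPM + 1), where it was 0. Genes called at 30 mg/kg (87) numbered 57 with no filter, 179 with DESeq2, 315 with voom and sample weights, 23 with limma-trend on TPM, 191 with the groups alone, and 61 to 182 with a library left out. Genes called at 10 mg/kg (66) numbered 32, 159, 235, 12 and 36 in the same settings, and 31 to 121 with a library left out. Leaving out 10 mg/kg replicate 2 gave the 182 and the 121; leaving out vehicle replicate 1, 2 or 5 gave 42, 40 and 31 at 10 mg/kg. Pathway list genes called at 30 mg/kg (3) numbered 6 with voom, 0 with limma-trend on TPM, 5 with the groups alone and 1 to 4 with a library left out (1 without vehicle replicate 2 or 6 or 30 mg/kg replicate 6). At 10 mg/kg (3) they numbered 0 with no filter, 8 with DESeq2, 8 with voom, 0 with limma-trend on TPM, 1 with the groups alone and 0 to 4 with a library left out (0 without vehicle replicate 1, 4 or 5; 1 without vehicle replicate 2 or 6 or 10 mg/kg replicate 1 or 4). Between 30 and 10 mg/kg 0 genes were called in every setting. The cause of these shifts was not tested. Same-numbered libraries shared only a number: their deviations from group means correlated at -0.284 to 0.226, with 3 of 18 pairs over 0.1. With the replicate block 24 genes and 0 pathway list genes were called at 10 mg/kg, and KLF6, KLF9 and NFKBIA at 10 mg/kg and PCK2 at 30 mg/kg did not pass (adjusted p = 0.0612, 0.0802, 0.143 and 0.0916). Depth limits TXNIP, PIK3IP1 and every value of 10 mg/kg replicate 2.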
